A study of Homo sapiens with 6 samples.

Results

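Cholesterol and fatty acid synthesis genes are the enzymes that build sterols and fatty acids from acetyl-CoA, together with the regulators that set their transcription. A list of 28 of them was looked up by symbol among the 25330 gene symbols counted, and all 28 were found. They comprise 18 sterol enzymes, 4 fatty acid enzymes and a set of 6 made of 5 regulators and a sterol transporter. All libraries were made from cells of MDA-MB-231, a human line of triple-negative breast cancer kept in medium with serum, and carry the same batch label. The compared groups were RNASEH2A KO (titles beginning RN1, 3 libraries), labelled as lacking the catalytic subunit of RNase H2, and control (titles beginning CTRV2, 3 libraries), with no treatment in either. Each library of a group is a separate passage, and p-values therefore rest on passage-to-passage spread. Whether a group descends from a single clone, and how the gene was disrupted, is not stated in the labels.

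When sterol is scarce in the endoplasmic reticulum, SCAP escorts the SREBP precursors to the Golgi, where proteases release the part that enters the nucleus and switches on these genes. INSIG proteins hold SCAP back when sterol is plentiful. SREBP-2, from SREBF2, acts mainly on sterol synthesis and SREBP-1, from SREBF1, mainly on fatty acid synthesis, and SREBF1 is itself a target of the oxysterol receptors LXR. Tumour cells commonly draw on both branches for membrane.

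In the knockout libraries 2 sterol enzymes passed the test, both higher, FDFT1 by 1.55-fold and MVD by 1.48-fold, and the other 26 genes did not. Of all tested genes 12.1% passed, 5.88% higher and 6.22% lower, so this count lay near the background. Genes beside MVD on its chromosome were also higher, with a median log2 fold change of 0.27. With the medians of such neighbours subtracted, MVD did not pass (edgeR adjusted p = 0.190) and FDFT1 did (0.0331). The sterol enzymes had a median log2 fold change of 0.22, against 0.02 for the fatty acid enzymes. The widest differences among these genes lay within the knockout group: SREBF1 differed 3.25-fold, INSIG1 2.51-fold and SCD 2.34-fold between the highest and the lowest knockout library.

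Promoters of 4 of the genes are shown because MVD passed the test, MVK stood higher in every knockout library, SREBF2 held the only match to the sterol regulatory element core, and INSIG1 had one of the widest spreads. Each is the RefSeq window (GRCh38.p14) from 250 bases before to 50 after the transcription start, read 5′ to 3′ on the gene's strand. Capitals mark matches on either strand to the sterol regulatory element core TCACNCCAC, to the CCAAT box bound by NF-Y, a partner of SREBP (ATTGG on the other strand), or to the E-box CACGTG. The windows lie at chr16:88663042-88663341 (minus strand) for MVD, chr12:109573544-109573843 (plus strand) for MVK, chr22:41832855-41833154 (plus strand) for SREBF2 and chr7:155297628-155297927 (plus strand) for INSIG1.
MVD: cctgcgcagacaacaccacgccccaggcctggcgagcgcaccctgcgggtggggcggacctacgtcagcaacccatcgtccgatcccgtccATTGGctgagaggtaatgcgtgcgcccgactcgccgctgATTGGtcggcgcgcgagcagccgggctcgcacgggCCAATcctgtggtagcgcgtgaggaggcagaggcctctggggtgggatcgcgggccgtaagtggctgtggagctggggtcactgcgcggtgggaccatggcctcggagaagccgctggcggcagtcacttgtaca
MVK: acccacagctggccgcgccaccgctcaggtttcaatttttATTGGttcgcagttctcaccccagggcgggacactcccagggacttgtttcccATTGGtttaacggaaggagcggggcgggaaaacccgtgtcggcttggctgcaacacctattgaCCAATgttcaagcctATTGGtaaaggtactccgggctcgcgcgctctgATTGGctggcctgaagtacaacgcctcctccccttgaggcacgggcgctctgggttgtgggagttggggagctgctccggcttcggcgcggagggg
SREBF2: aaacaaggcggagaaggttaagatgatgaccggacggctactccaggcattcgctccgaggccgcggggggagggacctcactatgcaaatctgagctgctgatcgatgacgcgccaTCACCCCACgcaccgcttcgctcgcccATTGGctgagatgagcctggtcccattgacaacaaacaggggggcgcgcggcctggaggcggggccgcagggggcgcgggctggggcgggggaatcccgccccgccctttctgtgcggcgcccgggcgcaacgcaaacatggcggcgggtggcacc
INSIG1: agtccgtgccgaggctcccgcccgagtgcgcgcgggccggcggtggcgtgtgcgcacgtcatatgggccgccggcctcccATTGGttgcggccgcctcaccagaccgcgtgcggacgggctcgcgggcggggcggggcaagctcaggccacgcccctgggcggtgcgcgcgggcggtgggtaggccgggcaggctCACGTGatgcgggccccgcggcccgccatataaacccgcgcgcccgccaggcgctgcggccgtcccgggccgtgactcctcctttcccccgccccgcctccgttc
The MVD window held 3 CCAAT boxes and the MVK window 5. In SREBF2 the sterol regulatory element core began 133 bases before the start, and in INSIG1 the E-box began 55 bases before it.

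RefSeq windows were matched for 24 of the 28 genes; the others are ACAT2, FASN, FDFT1 and SQLE. A CCAAT box was present for 19 of these 24 genes, or 79.2%, against 39.7% of 27305 genes with a window and 34.6% of all 35116 windows. The genes with no CCAAT box in a window were PMVK, CYP51A1, SREBF1, SCAP and INSIG2. The TCACNCCAC core was found for 1 of 24 genes, against 1.39% of all genes, and CACGTG for 4 of 24, against 8.78%. The motif classes did not overlap each other in the windows shown, and a match is only a run of letters.

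Counts per library ran from 27928670 to 31596286 in knockouts and from 25419877 to 29635083 in controls. RNASEH2A itself had 7, 8 and 16 counts in the libraries labelled knockout and 10, 6 and 15 in controls. It was nearly absent from both groups (means of 0.359 CPM in knockouts and 0.381 CPM in controls), and was not tested. Its count therefore does not check the labels, and every direction below rests on them. The defining genes of this mesenchymal line were abundant in both groups (VIM, CD44, AXL, CAV1 and MSN averaged between 721 and 1921 CPM in knockouts and between 735 and 1945 CPM in controls), and none of the 5 passed the test. Of 4 luminal genes, ESR1 was at 0 counts in all 6 libraries, FOXA1 had 0, 2 and 0 counts in knockouts and 0 in every control, PGR had 10, 12 and 8 counts in knockouts and 0, 2 and 0 in controls, and GATA3 averaged 31.98 CPM in knockouts and 36.2 CPM in controls. Of 2 leukocyte genes, PTPRC had 0 counts in every knockout and 6, 4 and 6 in controls, and CD14 had 130, 68 and 70 counts in knockouts and 112, 136 and 108 in controls. The epithelial genes EPCAM and CDH1 averaged 19.3 and 0.772 CPM in knockouts, against 15.1 and 1.499 CPM in controls, and GATA3, CD14, EPCAM and CDH1 did not pass the test. Knockout replicate 1 stood apart, with a chi-square per degree of freedom of 34.2 and 22.2 against knockout replicates 2 and 3, against 6.61 between those. Control replicate 1 stood apart less, at 11.4 and 10.2, against 2.45 between control replicates 2 and 3. Levels below are CPM, read counts divided by library size on the scale of edgeR's TMM factors, given for replicates 1, 2 and 3 in that order, and these are bulk libraries, in which fewer cells of a kind and less RNA per cell cannot be told apart.

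Per kilobase of annotated exon, the fatty acid genes were the most abundant. SCD, the desaturase that makes oleate from stearate, averaged 153 CPM per kilobase in knockouts and 129 in controls. ACLY, which makes cytosolic acetyl-CoA from citrate, followed at 93.3 in knockouts and 93.7 in controls, then FASN, the fatty acid synthase, at 79.1 and 76.2. ACACA, the acetyl-CoA carboxylase, was lower, at 12.6 CPM per kilobase in knockouts and 13.3 in controls. Among the sterol enzymes DHCR7 and LSS led, at 45.5 and 36.3 CPM per kilobase in knockouts, against 46.5 and 30.4 in controls. CYP51A1 and HSD17B7 were lowest, at 3.11 and 2.12 in knockouts, against 3.10 and 1.80 in controls.

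All 28 genes passed the filter on low counts. Called changed (edgeR quasi-likelihood test, Benjamini-Hochberg adjusted p under 0.05) were 2 of 28, both higher, where 12.1% of the 14199 genes tested across the genome were called, 5.88% higher and 6.22% lower. At an unadjusted p under 0.05 there were 9 of 28, all of them sterol enzymes, beside 27.7% of all tested genes. Knockout and control values did not overlap for 7 of 28 genes, 6 of them higher and 1 lower in knockouts, where 33.5% of all tested genes did not overlap, 16.1% with the knockouts higher and 17.4% with the knockouts lower. Over both directions, called and non-overlapping genes each made up a smaller share of the 28 than of all tested genes, and in the higher direction alone each made up a larger share, so the counts lay near the background. The log2 fold change was above 0 for 22 of 28, beside 7184 of 14199 over all tested genes, whose median was 0.00.

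**Figure D1:**
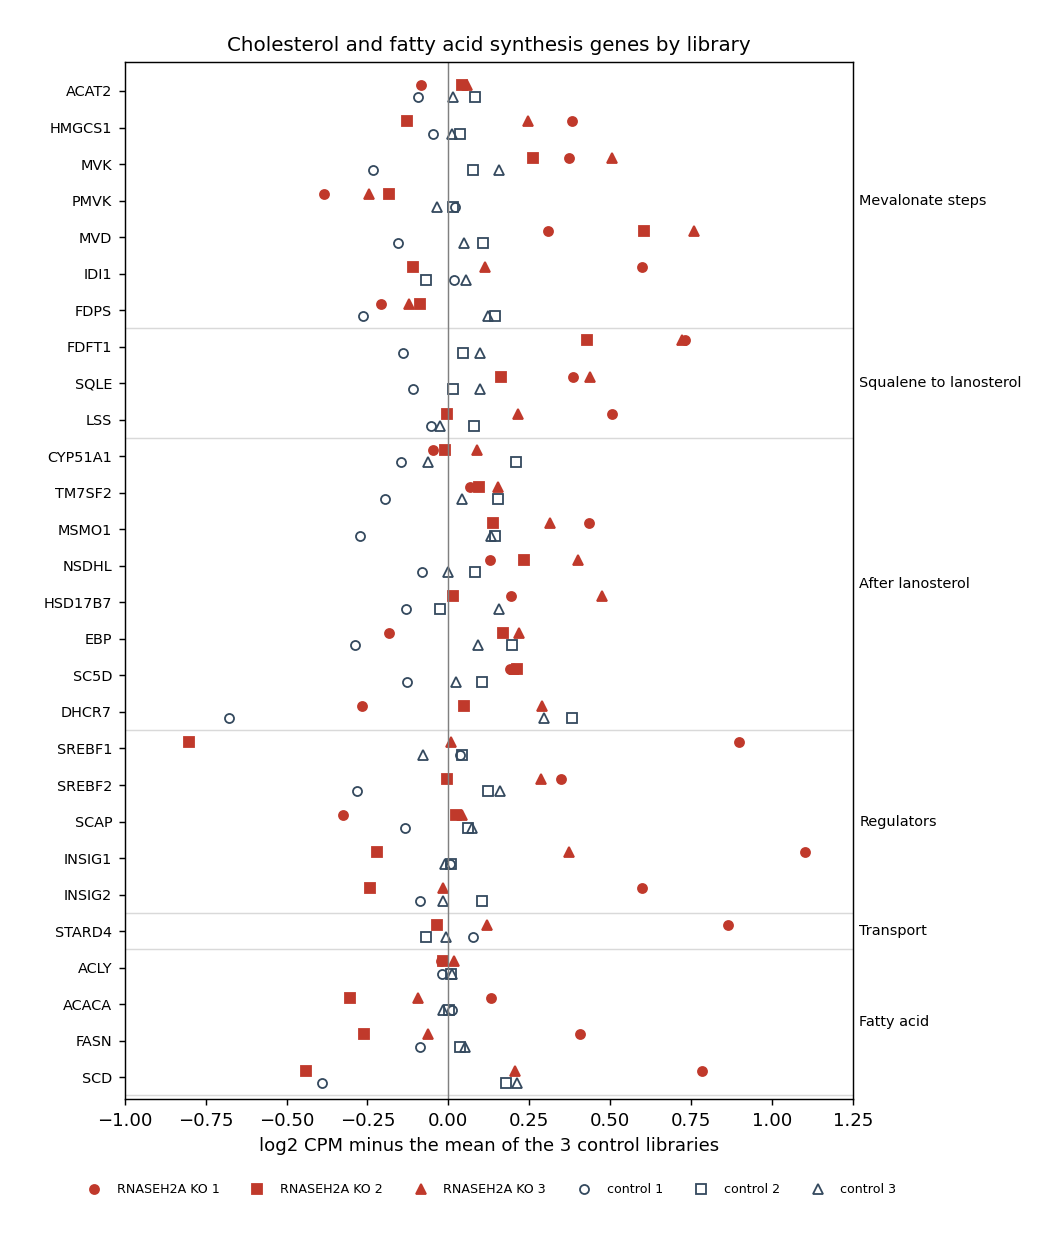
Each row is a gene, with its log2 CPM in the 3 RNASEH2A KO libraries (filled red) and the 3 control libraries (open) relative to the mean of the controls; symbols give the replicate number. FDFT1 and MVD lie to the right in all 3 knockouts, while SREBF1, INSIG1 and SCD are spread to both sides with knockout replicate 1 far right and replicate 2 left.

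The mevalonate steps turn acetyl-CoA into the isoprenoid farnesyl diphosphate. MVD, the decarboxylase that makes isopentenyl diphosphate, stood at 40.6, 49.9 and 55.5 CPM in knockouts, against 29.4, 35.3 and 33.9 CPM in controls. Every knockout library was above every control, and MVD rose by 0.57 ± 0.12 on the log2 scale (SE, n = 3 each, edgeR adjusted p = 0.0168). MVD (chromosome 16, 88651940 to 88663091, minus strand) lies among genes that were also higher: its 20 tested neighbours on each side had a median log2 fold change of 0.27. With that median subtracted MVD was at 0.29 and did not pass (adjusted p = 0.190). It also did not pass without knockout replicate 3 (adjusted p = 0.0869), control replicate 1 (0.0660) or control replicate 3 (0.0700).

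MVK, mevalonate kinase, stood at 41.7, 38.6 and 45.7 CPM in knockouts, against 27.4, 34.0 and 35.9 CPM in controls, with no overlap. It did not pass (log2 fold change 0.37 ± 0.11 SE, adjusted p = 0.0606). Of 15 alternative fits it passed in 4, among them DESeq2 (0.0243) and the fit without knockout replicate 1 (0.0322). The highest adjusted p was 0.229, without knockout replicate 3. PMVK, the next kinase of the same route, had the opposite order: 28.7, 32.9 and 31.5 CPM in knockouts, against 38.0, 37.8 and 36.5 CPM in controls. It was the one gene of the 28 with every knockout library below every control, and it did not pass (-0.27 ± 0.08 SE, adjusted p = 0.0624). PMVK and FDPS lie less than a megabase apart on chromosome 1, where the neighbours' medians were -0.08 and -0.06.

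HMGCS1, which condenses acetyl-CoA units into HMG-CoA, stood at 46.6, 32.7 and 42.4 CPM in knockouts, against 34.6, 36.7 and 36.1 CPM in controls. IDI1, the isopentenyl diphosphate isomerase, stood at 108, 66.3 and 77.4 CPM in knockouts, against 72.4, 68.1 and 74.2 CPM in controls. For both, knockout replicate 1 lay above and knockout replicate 2 below all 3 controls, and neither passed (log2 fold change 0.18 ± 0.12 SE for HMGCS1, adjusted p = 0.365, and 0.23 ± 0.15 SE for IDI1, adjusted p = 0.359). Without knockout replicate 1, HMGCS1 was at 0.07 (adjusted p = 0.666) and IDI1 at 0.01 (0.962). Without knockout replicate 2, HMGCS1 was at 0.32 (adjusted p = 0.0486) and IDI1 at 0.38 (0.0902). FDPS, which makes farnesyl diphosphate, had a log2 fold change of -0.15 ± 0.11 SE (adjusted p = 0.419), and ACAT2, the cytosolic thiolase, 0.00 ± 0.08 SE (adjusted p = 0.977). Of the ACAT2 exonic bases, 33.9% lie under a counted noncoding RNA and 9.23% under TCP1, both on the opposite strand, and the labels do not state whether counting used strand. The same limit touches IDI1, with 14.8% of its exonic bases under IDI2-AS1, and FDPS, with 18.6% under RUSC1-AS1.

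The next 3 enzymes commit farnesyl diphosphate to sterols and close the ring. FDFT1, squalene synthase, stood at 152, 123 and 151 CPM in knockouts, against 82.8, 94.1 and 97.6 CPM in controls. The lowest knockout library was above the highest control, and FDFT1 rose by 0.63 ± 0.10 (SE, n = 3 each, adjusted p = 0.00420), the largest log2 fold change of the 28 genes. FDFT1 (chromosome 8, 11795582 to 11839298, plus strand) also lies among genes that were higher, with a neighbour median of 0.21. With that subtracted it was at 0.42 and still passed (adjusted p = 0.0331), as it did in all 15 alternatives, with an adjusted p of 2.4e-07 to 0.0362.

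SQLE, squalene epoxidase, a slow oxygen-requiring step of the pathway, stood at 40.8, 35.0 and 42.4 CPM in knockouts, against 28.96, 31.6 and 33.4 CPM in controls. The groups did not overlap, and SQLE did not pass (0.33 ± 0.10 SE, adjusted p = 0.0556). It passed in 5 of the 15 alternatives, among them DESeq2 (adjusted p = 0.0271) and the fits without knockout replicate 1 (0.0423) or 2 (0.0278). The highest adjusted p was 0.214, without knockout replicate 3. Although SQLE and FDFT1 are both on chromosome 8, they lie on opposite arms, and the neighbours of SQLE had a median of -0.01. LSS, lanosterol synthase, stood at 313, 219.6 and 256 CPM in knockouts, against 212, 232 and 216 CPM in controls. The groups overlapped through knockout replicate 2, and LSS did not pass (0.25 ± 0.11 SE, adjusted p = 0.177). Without knockout replicate 2 it was at 0.37 (adjusted p = 0.0355), and without knockout replicate 1 at 0.11 (0.285).

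**Figure D2:**
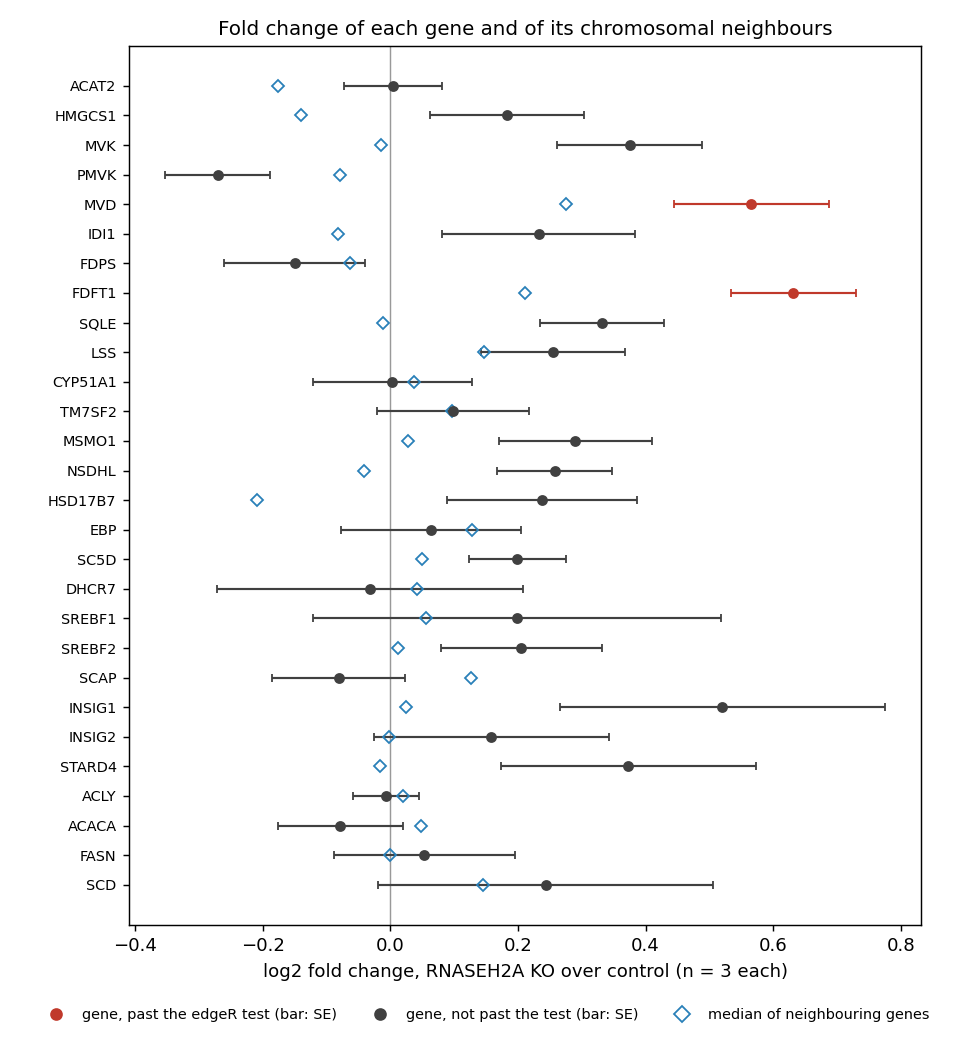
Points give the log2 fold change of each gene, RNASEH2A KO over control, with the standard error as a bar (n = 3 each); red marks genes past the edgeR test and open diamonds the median of up to 20 tested neighbours on each side. FDFT1 and MVD are the red points at 0.63 and 0.57, with their neighbours at 0.21 and 0.27.

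Of the 8 enzymes that turn lanosterol into cholesterol, none passed in edgeR, DESeq2 or limma-voom, and 3 had an unadjusted edgeR p under 0.05. Their median log2 fold change was 0.15. NSDHL, a sterol dehydrogenase that helps remove methyl groups, stood at 45.9, 49.4 and 55.6 CPM in knockouts, against 39.7, 44.5 and 42.0 CPM in controls, with no overlap (0.26 ± 0.09 SE, adjusted p = 0.0967). The adjusted p of NSDHL was 0.0144 without knockout replicate 1 and 0.324 without knockout replicate 3. SC5D, a sterol desaturase, had the tightest knockout values, 73.3, 74.4 and 74.0 CPM, against 58.7, 69.0 and 65.3 CPM in controls. These did not overlap, with a log2 fold change of 0.20 ± 0.08 SE (adjusted p = 0.122). MSMO1, the sterol methyl oxidase, stood at 93.0, 75.5 and 85.5 CPM in knockouts, against 56.8, 75.9 and 75.2 CPM in controls, and overlapped narrowly (0.29 ± 0.12 SE, adjusted p = 0.151).

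DHCR7, a reductase that acts near the end of the pathway, varied most within the controls, at 115, 239.8 and 226 CPM, beside 153, 190.2 and 225 CPM in knockouts. Replicate 1 was the lowest library in both groups, and the log2 fold change was -0.03 ± 0.24 SE (adjusted p = 0.947). Replicate 1 was the lowest library of both groups for 9 of the 18 sterol enzymes, beside 22.6% of all tested genes. It was so too for 22 of 48 other tested genes of sterol and fatty acid handling (45.8%), so the pattern was not particular to sterol enzymes. The 9 sterol enzymes were ACAT2, CYP51A1, DHCR7, EBP, FDPS, MVD, NSDHL, SC5D and TM7SF2, and the pattern was picked out after the values were seen.

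The remaining late enzymes did not pass. The sterol demethylase CYP51A1 averaged 11.2 ± 0.545 CPM in knockouts and 11.1 ± 1.48 CPM in controls (SD, n = 3 each). The sterol reductase TM7SF2 averaged 12.3 ± 0.378 CPM in knockouts and 11.5 ± 1.39 CPM in controls, and the isomerase EBP 45.9 ± 6.69 CPM in knockouts and 44.0 ± 7.45 CPM in controls. The ketosteroid reductase HSD17B7 averaged 10.1 ± 1.67 CPM in knockouts and 8.60 ± 0.881 CPM in controls. HSD17B7 and CYP51A1 have pseudogene copies, as do FDPS, with 8 named, and SCD, with 1. In addition, 79.4% of the CYP51A1 exonic bases are shared with an overlapping annotated transcript unit on the same strand. The counts of all these genes are therefore uncertain.

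The 6 regulators and transporter did not pass in edgeR, DESeq2 or limma-voom, with 0 unadjusted edgeR p-values under 0.05. Most of them varied within the knockout group instead, with a median log2 range over the 3 knockout libraries of 0.87, beside 0.17 over the 3 controls. Over all tested genes these medians were 0.29 and 0.20. The knockout range was the wider for 5 of the 6, beside 65.6% of all tested genes. The exception was SREBF2, at 0.35 in knockouts and 0.44 in controls. INSIG1, which retains SCAP and is itself induced by SREBP, stood at 229.7, 91.6 and 138 CPM in knockouts, against 107, 107 and 106 CPM in controls. Its controls lay within 1.01-fold of each other, while the knockouts lay on both sides of them (log2 fold change 0.52 ± 0.26 SE, adjusted p = 0.219). Without knockout replicate 2 it was at 0.79 with an adjusted p of 0.0212, and without knockout replicate 1 at 0.11 (0.598).

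SREBF1, which encodes SREBP-1, stood at 330.3, 102 and 178.5 CPM in knockouts, against 182, 183 and 168 CPM in controls. Knockout replicate 1 was far above and replicate 2 far below the controls (0.20 ± 0.32 SE, adjusted p = 0.737, and -0.34 without knockout replicate 1). SREBF2, which encodes SREBP-2, was less spread, at 203, 159 and 194 CPM in knockouts, against 131, 173 and 178 CPM in controls (0.21 ± 0.13 SE, adjusted p = 0.328). SCAP, the escort protein, stood at 127, 162 and 164 CPM in knockouts, against 145, 166 and 168 CPM in controls, with replicate 1 lowest in both groups (-0.08 ± 0.10 SE, adjusted p = 0.666). INSIG2, the second retention protein, stood at 51.9, 28.9 and 33.9 CPM in knockouts, against 32.2, 36.8 and 33.8 CPM in controls (0.16 ± 0.18 SE, adjusted p = 0.627). STARD4, a soluble sterol carrier, stood at 63.3, 34.0 and 37.8 CPM in knockouts, against 36.7, 33.1 and 34.6 CPM in controls (0.37 ± 0.20 SE, adjusted p = 0.260). In INSIG2 and STARD4 knockout replicate 1 alone was above all the controls by more than their own range. Without knockout replicate 1, STARD4 was at 0.04 (adjusted p = 0.752) and INSIG2 at -0.13 (0.371), and without knockout replicate 2 STARD4 was at 0.55 (0.0876) and INSIG2 at 0.33 (0.2205).

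The 4 fatty acid enzymes did not pass in edgeR, DESeq2 or limma-voom, with 0 unadjusted edgeR p-values under 0.05. ACLY was nearly flat, at 482, 483 and 494 CPM in knockouts, against 483, 492 and 492 CPM in controls (-0.01 ± 0.05 SE, adjusted p = 0.947). FASN stood at 944, 595 and 682 CPM in knockouts, against 670.3, 731 and 738 CPM in controls (0.05 ± 0.14 SE, adjusted p = 0.845, and -0.16 without knockout replicate 1). SCD stood at 1174, 503 and 786 CPM in knockouts, against 519.8, 771 and 790.4 CPM in controls (0.24 ± 0.26 SE, adjusted p = 0.594, with -0.11 without knockout replicate 1 and 0.50 without knockout replicate 2). ACACA stood at 189.5, 140.1 and 162 CPM in knockouts, against 174, 173 and 171 CPM in controls (-0.08 ± 0.10 SE, adjusted p = 0.658). FASN, SCD and ACACA shared an order, with knockout replicate 1 above and knockout replicate 2 below every control.

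**Figure D3:**
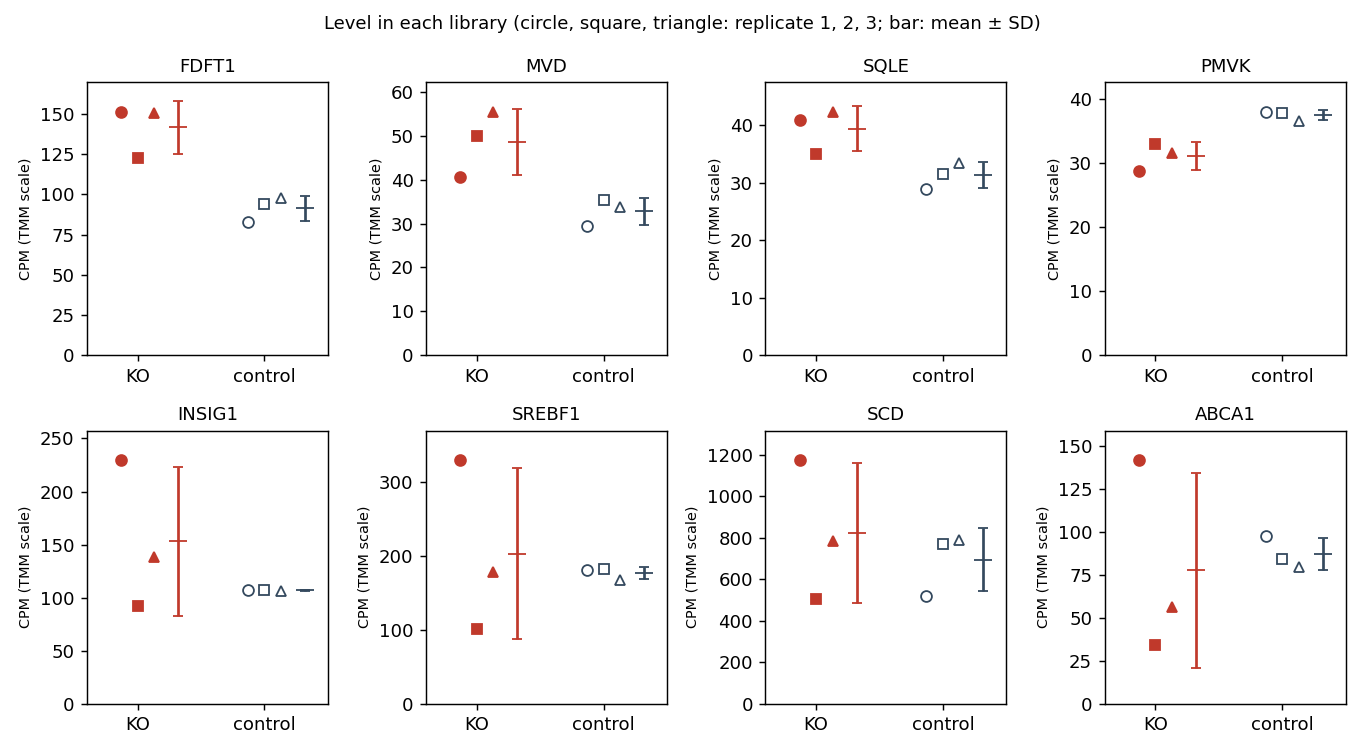
CPM of 8 genes in each library, RNASEH2A KO left and control right, with the mean ± SD beside the points (n = 3 each). FDFT1, MVD, SQLE and PMVK separate the groups, while INSIG1, SREBF1, SCD and ABCA1 have knockout replicate 1 above and replicate 2 below the controls.

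That order was counted after it had been seen. Knockout replicate 1 was above and knockout replicate 2 below all 3 controls for 8 of the 28 genes (ACACA, FASN, HMGCS1, IDI1, INSIG1, INSIG2, SCD and SREBF1), beside 7.61% of all tested genes. By role this was 3 of 4 fatty acid enzymes, 3 of the 6 regulators and transporter, and 2 of 18 sterol enzymes. In 48 tested genes of the surrounding pathway it held for 8. These included ABCA1 and ABCG1, the sterol exporters induced by LXR, MYLIP, an LXR-induced ubiquitin ligase, and LPIN1, a phosphatidate phosphatase. ABCA1 stood at 142, 34.4 and 56.4 CPM in knockouts, against 97.5, 84.0 and 79.6 CPM in controls. ABCG1 stood at 6.98, 0.288 and 1.85 CPM in knockouts, against 4.45, 3.16 and 3.81 CPM in controls. LPIN1 stood at 88.8, 38.8 and 53.4 CPM in knockouts, against 51.8, 40.3 and 42.6 CPM in controls. For ABCA1 and ABCG1 knockout replicates 2 and 3 were both below every control. Their log2 fold changes were -0.16 (edgeR adjusted p = 0.830) and -0.30 (0.819) over all libraries. Without knockout replicate 1 they were -0.94 and -1.82, without knockout replicate 2 0.19 and 0.23, and without knockout replicate 3 0.02 and -0.05. Knockout replicate 1 was singled out after its values were seen, so the fit without it gives no test of a decrease. The part of knockout replicate 1's general distance from the other libraries in this order was not tested.

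Set side by side, the 18 sterol enzymes had a median log2 fold change of 0.22 and a range of -0.27 to 0.63, with 15 above 0. The 4 fatty acid enzymes had a median of 0.02 and a range of -0.08 to 0.24, with 2 above 0. The sign of the fatty acid median rested on single libraries: it was -0.13 without knockout replicate 1, 0.11 without knockout replicate 2 and -0.00426 without control replicate 1. By library, the sterol median relative to the control mean was 0.19, 0.07 and 0.23 in knockouts, against -0.14, 0.08 and 0.05 in controls. The fatty acid median was 0.27, -0.28 and -0.02 in knockouts, against -0.05, 0.02 and 0.03 in controls. Sterol minus fatty acid was thus -0.08, 0.35 and 0.26 in knockouts, against -0.08, 0.06 and 0.02 in controls. Both branches overlapped between the groups, and so did their difference, which was above every control in knockout replicates 2 and 3 but not in replicate 1. The difference of the branches' median log2 fold changes, 0.19, was 0.12 without knockout replicate 3. Genes of a branch are not replicates, and no test of the branches was made.

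Summed over the enzymes, sterol CPM was 1277 ± 84.6 in knockouts and 1111.5 ± 132 in controls (SD, n = 3 each). Fatty acid CPM was 2212 ± 540.0 in knockouts and 2069 ± 192 in controls. The ratio of these sums was 0.470, 0.686 and 0.631 in knockouts, against 0.520, 0.556 and 0.533 in controls. Knockout replicate 1 had the lowest and knockout replicates 2 and 3 the highest ratios of the 6 libraries.

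**Figure D4:**
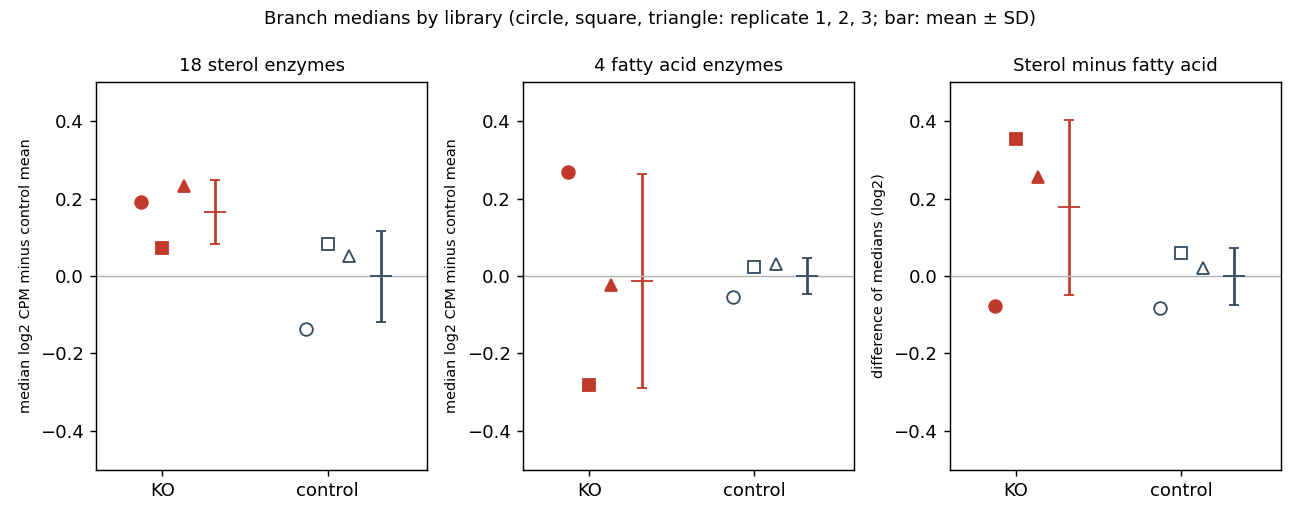
Per-library medians of the log2 CPM relative to the control mean over 18 sterol enzymes (left) and 4 fatty acid enzymes (middle), and their difference (right), for RNASEH2A KO and control libraries with mean ± SD (n = 3 each). Knockout fatty acid medians run from -0.28 to 0.27, while sterol medians run from 0.07 to 0.23.

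Another 49 genes of sterol and fatty acid handling were chosen by function, with earlier results of these data known. Of these 48 were tested, 1 rose and 2 fell, where 12.1% of all tested genes were called. THRSP fell below the count filter. NPC2, which carries cholesterol out of lysosomes, rose to 171 ± 15.1 CPM in knockouts, against 131 ± 16.3 CPM in controls (0.39 ± 0.10 SE, adjusted p = 0.0346). ME1, the malic enzyme that supplies NADPH for fatty acid synthesis, fell to 28.2 ± 5.31 CPM in knockouts, against 38.7 ± 2.12 CPM in controls (-0.45 ± 0.13 SE, adjusted p = 0.0451). LBR, a nuclear envelope protein with sterol reductase activity, fell to 187 ± 11.3 CPM in knockouts, against 223 ± 8.22 CPM in controls (-0.25 ± 0.07 SE, adjusted p = 0.0387). With the neighbour medians subtracted none of the 3 passed (adjusted p = 0.218 for NPC2, 0.0649 for ME1 and 0.610 for LBR). ME1 and LBR kept their calls only without knockout replicate 1 among the 6 fits that left out a library, with other adjusted p-values from 0.100 to 0.185, and NPC2 only without knockout replicate 1 or control replicate 2, with others from 0.0725 to 0.158.

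The processing of SREBP was covered by 5 genes, among them the proteases MBTPS1 (0.09 ± 0.06 SE, adjusted p = 0.362) and MBTPS2 (-0.13 ± 0.07 SE, adjusted p = 0.297), and 0 passed in edgeR, with 1 unadjusted p under 0.05. Among 7 genes that take part in degrading sterol enzymes 0 passed, with 2 unadjusted p-values under 0.05. Of these 7 log2 fold changes 6 were below 0, with a median of only -0.05. Over all tested genes 12.1% passed, 27.7% had an unadjusted edgeR p under 0.05, and 7015 of 14199 log2 fold changes were below 0. Among the 16 tested genes of fatty acid supply and elongation ME1 was the one that passed. ACACB, the mitochondrial acetyl-CoA carboxylase, had a log2 fold change of 0.15 ± 0.12 SE (adjusted p = 0.471).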

How the data were processed

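Gene-level values from 6 poly-A, strand-specific RNA-seq libraries were used. FastQC, STAR (version 2) and GRCh38 are the tools and build named in the submitters' processing notes. Neither those notes nor the labels name the counting tool, its strand setting or its annotation. The deposited table of raw read counts, whole numbers per symbol per the file headers and values, gave all main results. The authors' deposited log2 CPM table, whose filter and prior count are not stated, served for 1 alternative. Groups follow the genotype label.

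The filterByExpr function of edgeR 4.0.16 (R 4.3.3) left 14199 genes, which were TMM-scaled and tested by the quasi-likelihood F test, two-sided, with no covariate and Benjamini-Hochberg adjustment over all tested genes at 0.05. Standard errors are the log2 fold change divided by the square root of F. Per-library log2 values used a prior count of 2. Positions are from RefSeq GRCh38.p14, exon lengths and overlaps from GENCODE 29 (same build), and neighbour medians from up to 20 tested genes on each side. Library totals ran from 25419877 to 31596286. No pair of replicate libraries agreed within sampling noise, and all 6 were kept. Alternatives were DESeq2 1.42.0, limma-voom (limma 3.58.1), RLE factors, library size scaling, 2 other filters, a replicate block, limma on the deposited log2 CPM, neighbour subtraction and leaving out each library.

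The members and lists were chosen with earlier results of these data known. All 28 members are named, with those of 49 pathway genes that passed and ACACB, and 1 further gene under that rule is not reported here; ABCA1, ABCG1, MYLIP, LPIN1, THRSP, MBTPS1 and MBTPS2 were named after their values were seen. Promoters were picked after values and motifs were seen, for the reasons given with them, and some genes not printed met such a reason too.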

Additional observations from a re-analysis of the deposited data

How the results depend on the processing

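The count of changed genes, 1718, was 3099 with the replicate block and 983 with neighbour medians subtracted, and ran from 524 to 3430 when 1 library was left out: 3430 without knockout replicate 1, 1457 without 2 and 524 without 3, and 1055, 649 and 550 without control replicates 1, 2 and 3. Of the 28 genes, 2 were called, against 4 in DESeq2, 7 with no filter on low counts, 6 with the replicate block and 1 with neighbour medians subtracted, with 5, 6 and 1 without knockout replicates 1, 2 and 3 and 1, 2 and 1 without control replicates 1, 2 and 3. Of the pathway genes, 3 were called, against 1 with library size scaling only, 6 with no filter, 11 with the block and 0 with neighbour medians subtracted (8 at an unadjusted edgeR p under 0.05), with 8 without knockout replicate 1, 1 without control replicate 2 and 0 without any other library. The cause was not tested. The replicate numbers were not taken as pairs, as no pairing is stated. Same-numbered libraries had correlations of 0.32, 0.14 and 0.09 between their deviations from the group means. Knockout replicate 1 was at -0.18 with both control replicates 2 and 3. Control replicate 1 was at -0.24 and -0.15 with knockout replicates 2 and 3. Deviations from a group mean cancel within the group, so these negative values are tied to the 0.32 and add no separate support. By the 0.32, replicate 1 deviated in part alike in both groups. Knockout replicates 2 and 3 each correlated about equally with control replicates 2 and 3 (both 0.14, and both 0.09).

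The branch medians moved by less than the spread between libraries under every alternative, from 0.15 to 0.30 for sterol enzymes and from -0.13 to 0.11 for fatty acid enzymes without 1 library. Signs turned only for genes that were not called. DHCR7 was at 0.0251 in limma-voom, 0.0204 with the block and 0.0244 on the deposited log2 CPM. ACLY was at 0.00555 with library size scaling and 0.0048 with no filter. With neighbour medians subtracted CYP51A1 was at -0.0341 and EBP at -0.0639, and MYLIP was at -0.000298 on the deposited log2 CPM. Leaving out 1 library gave ranges on both sides of 0: -0.0433 to 0.0489 for ACAT2, -0.0714 to 0.12 for CYP51A1, -0.0699 to 0.18 for EBP, -0.30 to 0.15 for DHCR7, -0.34 to 0.53 for SREBF1, -0.15 to 0.0309 for SCAP, -0.13 to 0.33 for INSIG2, -0.0178 to 0.00388 for ACLY, -0.20 to 0.0288 for ACACA, -0.16 to 0.19 for FASN, -0.11 to 0.50 for SCD, -0.94 to 0.19 for ABCA1, -1.82 to 0.23 for ABCG1 and -0.17 to 0.23 for MYLIP.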
